A study of Mus musculus with 6 samples.

Results

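The genes described here are 39 interferon-stimulated genes outside the OAS, IFIT, Mx, GTPase and nucleic acid sensor families. They were listed by symbol, with earlier results of these data known, and all 39 matched exactly 1 row of the deposited mm10 table of 23154 Ensembl mouse genes. The RNA came from RAW264.7, an established line of mouse macrophage-like cells, in 2 stable derivatives that carried the doxycycline-inducible vector pINDUCER20b. In the line called NUR77 the vector encoded HA-tagged NUR77, the nuclear receptor product of Nr4a1, and in the control line it encoded GFP. Both lines received doxycycline at 1 µg/mL for 18 hours, begun 24 hours after seeding, and each was sequenced as 3 libraries from separate dishes. Each group is a single stable line that the labels do not describe as a clone or a pool, and no line without doxycycline was analysed here. The labels name no interferon and no inflammatory stimulus. Differences between lines and the effect of the transgene therefore cannot be told apart, and the p-values reflect only how far dishes of 1 line vary. By its title, the series asks how NUR77 acts on the inflammatory response and mitochondrial metabolism of macrophages.

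Type I interferon binds a receptor made of IFNAR1 and IFNAR2, and the kinases JAK1 and TYK2 then phosphorylate transcription factors of the STAT family. A STAT complex that contains IRF9 binds the interferon-stimulated response element (ISRE), while STAT dimers bind the gamma-activated sequence (GAS). Macrophages keep many of the target genes at a low level without added interferon and raise them strongly when a virus or bacterial product is sensed. NR4A receptors such as NUR77 can bind DNA as monomers at a different element, the NBRE.

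Promoter sequence is shown first because it is where the ISRE and GAS letters of these genes can be read. RefSeq windows of 300 bases (GRCm38.p6, 250 bases before to 50 after the annotated start) were held for 32 of the 39 genes, in 40 windows. The ISRE core was searched as GAAA, any 2 bases and GAAA, the GAS core as TTCNNNGAA and the NBRE as AAAGGTCA. Both strands were searched, and ISRE and GAS core matches can overlap. An ISRE core match was present for 12 of the 32 genes (37.5%), against 3.99% of the 27025 genes with a window. A GAS core match was present for 7 (21.9%), against 9.55% of all genes. The NBRE letters were in the windows of 0 of the 32 genes, against 1.70% of all genes, and no other NR4A element was searched. With a share that low among all genes, 0 of 32 does not set the list apart. These are matches of letters, not shown binding sites, and a missing match says only that the letters are not in this window. The genes were chosen as interferon targets, so the ISRE share is a description of the list.

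The 6 stretches below set 3 genes that rose beside the 3 members that held an ISRE core and were not called higher. Of the latter, Ifitm3 fell, while Ifitm2 and Trim21 were not called, which does not show that they did not rise. The 3 that rose were picked by no set rule from the 9 genes with an ISRE core that did. Genes with smaller rises, such as Slfn8 (log2 fold change 1.00), are not printed, so the 6 are examples only. Each stretch starts 150 bases before the RefSeq start and reads 5′ to 3′ on the gene's strand, the minus strand in all 6. The Ifitm3 and Trim21 stretches go on to 30 bases after the start, where their matches lie. Capitals mark ISRE core letters, and in Ifitm3 also the GAS core that overlaps the second ISRE core. In Rsad2 and Trim30a the match lies on the opposite strand and is printed as its reverse complement.
Isg15 (chr4:156200819-156200968): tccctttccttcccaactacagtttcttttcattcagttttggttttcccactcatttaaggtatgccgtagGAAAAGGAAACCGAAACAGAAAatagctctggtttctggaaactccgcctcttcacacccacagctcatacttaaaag
Rsad2 (chr12:26456453-26456602): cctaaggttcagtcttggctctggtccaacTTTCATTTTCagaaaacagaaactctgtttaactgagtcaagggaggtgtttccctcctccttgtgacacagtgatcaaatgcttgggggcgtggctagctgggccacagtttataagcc
Trim30a (chr7:104465194-104465343): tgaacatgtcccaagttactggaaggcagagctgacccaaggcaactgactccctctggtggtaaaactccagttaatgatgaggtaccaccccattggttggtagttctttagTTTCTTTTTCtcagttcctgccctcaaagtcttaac
Ifitm2 (chr7:140955962-140956111): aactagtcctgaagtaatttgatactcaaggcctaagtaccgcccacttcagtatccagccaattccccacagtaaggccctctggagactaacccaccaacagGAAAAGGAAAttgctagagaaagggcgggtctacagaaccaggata
Ifitm3 (chr7:141010715-141010894): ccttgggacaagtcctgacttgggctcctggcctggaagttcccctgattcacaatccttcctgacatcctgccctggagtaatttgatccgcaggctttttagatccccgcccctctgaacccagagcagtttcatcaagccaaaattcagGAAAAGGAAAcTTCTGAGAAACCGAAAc
Trim21 (chr7:102565453-102565632): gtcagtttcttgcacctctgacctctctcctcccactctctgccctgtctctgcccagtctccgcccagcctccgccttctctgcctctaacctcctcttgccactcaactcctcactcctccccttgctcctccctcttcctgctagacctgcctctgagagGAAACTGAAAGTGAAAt
In Isg15 the ISRE core occurred 3 times in overlapping copies between bases -78 and -57. Rsad2, Trim30a and Ifitm2 held 1 copy each. Ifitm3 and Trim21 held 2 copies each, all after the start. Of the 12 genes with an ISRE core, 9 rose in the NUR77 line by the test described below, Ifitm3 fell, and Ifitm2 and Trim21 were not called. Of the 20 genes with a window and no ISRE core, 19 rose and Trim25 fell. Over all tested genes, 38.4% rose and 28.3% fell. Isg15, Rsad2 and Ddx60 with an ISRE core, and Cmpk2 and Isg20 without, passed the filter on low values only through the NUR77 line. Those genes could hardly have been tested without a rise. Genes called higher, and genes not called higher, were thus found both with and without ISRE core letters. The median log2 fold change was 1.73 (-0.74 to 4.75) with an ISRE core and 0.89 (-0.26 to 6.88) without. Whether the letters bear on the change was not tested.

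**Figure D1:**
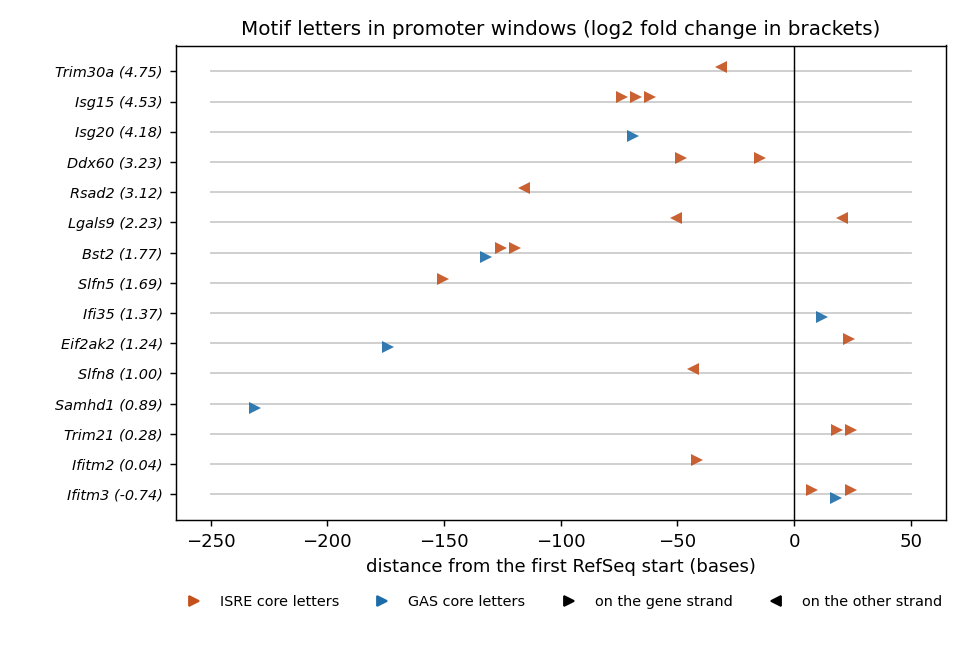
Position of ISRE core and GAS core letters in the first RefSeq promoter window of 15 genes, as distance in bases from the start (x axis). Genes are ordered by their log2 fold change, printed beside the symbol; arrowheads to the right mark the gene's strand and to the left the other strand, and Ifitm3, with matches after the start, has the lowest value at -0.74.

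The unit of level is the normalized read, 1 per 10000000 reads counted on genes in a library. Differences are log2 fold changes of NUR77 over GFP on the log2(normalized reads + 1) scale, tested with limma across the 11201 genes with a mean of 10 or more and called at a Benjamini-Hochberg adjusted p under 0.05. Depth was between 11199468 and 15929487 reads per library. Nr4a1 lay between 148 and 170 normalized reads for GFP and between 288 and 314 across the NUR77 dishes (log2 fold change 0.90, limma adjusted p = 5.5e-08). The species of the transgene's NUR77 sequence is not stated in the labels, so how far its reads are counted in Nr4a1 is unknown. All 10 macrophage markers listed, among them Spi1, Csf1r and Cd68, were at 10 or more in every library, with sums of 77768 to 79184 in the GFP line and 28797 to 30458 in the NUR77 line. They did not move together: 7 were called lower, among them Lyz2 (mean 26664 to 2566) and Mpeg1 (16580 to 1019), Itgam was called higher (4224 to 9598), and Spi1 and Ptprc were not called. Of the plasmacytoid dendritic cell markers, of a cell type known for interferon production, Siglech had 16 reads over the GFP libraries and 0 over the NUR77 libraries, and Ccr9 had 5 and 1. The third, Tcf4, which many cell types express, had means of 1144 and 1139. The T cell markers Cd3e and Cd3d, the B cell marker Ms4a1, the epithelial markers Krt8 and Cdh1 and the fibroblast marker Pdgfra had no read in any library. Other markers of these lists had a few reads, and the whole lists summed per library to at most 1.31 normalized reads for T cells, 3.14 for B cells and 0.893 for epithelial cells. NUR77 replicate 1 stood apart in skeletal muscle genes. The 14 muscle markers summed to 389 to 436 in the GFP libraries and to 329, 110 and 122 across the NUR77 dishes. Without Tnni2, which was higher in the GFP line and was set aside after its values were seen, the other 13 summed to 232 in NUR77 replicate 1 and to between 46.4 and 53.4 in the other 5 libraries. The 5 fibroblast markers summed to 92.9 there and to between 17.6 and 32.0 elsewhere.

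The NUR77 line had higher levels of most of these interferon-stimulated genes. Of the 39, 37 passed the test in either direction, against 66.7% of all tested genes: 34 rose, against 38.4% of those genes, and 3 fell (Ifitm3, Trim25 and Tor3a), against 28.3%. Ifitm2 and Trim21 were not called. In bulk RNA, more cells that express a gene and more RNA per cell cannot be told apart. The median log2 fold change was 1.24, beside 0.06 over all tested genes. Rises of 2-fold or more were found for 23 members (7.68% of all tested genes) and of 4-fold or more for 13 (3.04%). In 34 members all 3 NUR77 libraries lay above all 3 GFP libraries (40.3% of all tested genes), and in 3 members all lay below (30.3%). All 39 passed the filter on low values, but 6 did so only through the NUR77 line and could hardly have been tested without a difference (Isg15, Rsad2, Cmpk2, Isg20, Ddx60 and Rtp4). Among the other 33, 28 rose and 3 fell, with a median of 1.03. Without NUR77 replicate 1, the counts over the 39 were again 34 and 3.

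**Figure D2:**
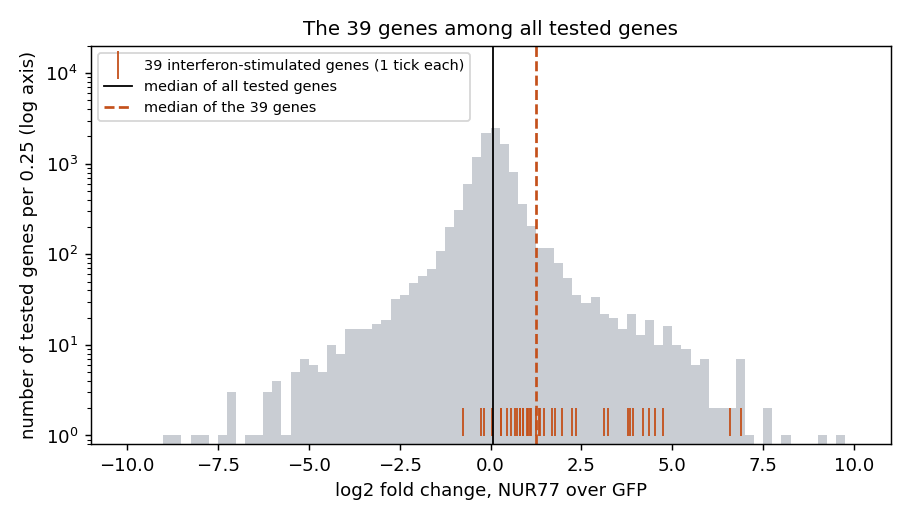
Number of tested genes (log y axis) by log2 fold change of NUR77 over GFP (x axis, bins of 0.25), with 1 tick for each of the 39 interferon-stimulated genes. The solid line is the median of all tested genes, 0.06, and the dashed line that of the 39 genes, 1.24; 3 of the 39 were called lower.

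ISG15 is a ubiquitin-like protein that is attached to other proteins. Its E2 enzyme is UBE2L6, HERC6 is the main E3 ligase in mouse cells, TRIM25 is another E3 ligase that also acts in RNA sensing, and USP18 removes ISG15 and blocks the interferon receptor. In this group of 5 genes, 4 rose and Trim25 fell. Isg15 (chromosome 4, 156199424 to 156200818, minus strand, mm10) had 9.76, 6.28 and 9.15 normalized reads in GFP replicates 1, 2 and 3, and 195, 246 and 204 in NUR77 replicates 1, 2 and 3. The lines were far apart, a 25.6-fold rise in mean level (log2 fold change 4.53, SE 0.18, limma adjusted p = 8.3e-13). Usp18 (chromosome 6, 121245906 to 121270917) stood at 30.7, 23.2 and 24.2 across the GFP dishes and at 348, 431 and 430 across the NUR77 dishes. The mean rose 15.5-fold without overlap (log2 difference 3.91, SE 0.13, limma adjusted p = 8.2e-14).

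The conjugating enzymes moved less than the modifier and its protease. Herc6 rose from 68.0 ± 1.54 normalized reads to 128 ± 17.0 (SD, n = 3 per line; log2 fold change 0.90). Ube2l6 was measured at 140, 125 and 136 in the GFP line and at 141, 178 and 174 in the NUR77 line. The lowest NUR77 library was thus nearly level with the highest GFP library, and the rise was small (log2 fold change 0.29, limma adjusted p = 0.023). It was no longer called with GFP replicate 2 (adjusted p = 0.083), NUR77 replicate 2 (0.11) or NUR77 replicate 3 (0.082) left out, nor under TMM (0.076) and median-of-ratios scaling (0.056). Trim25 (chromosome 11, 88999376 to 89020293) had 3325, 2883 and 3064 in the GFP line and 2573, 2559 and 2604 in the NUR77 line. All NUR77 values were lower, by 0.26 on the log2 scale (SE 0.05, limma adjusted p = 4.8e-04).

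**Figure D3:**
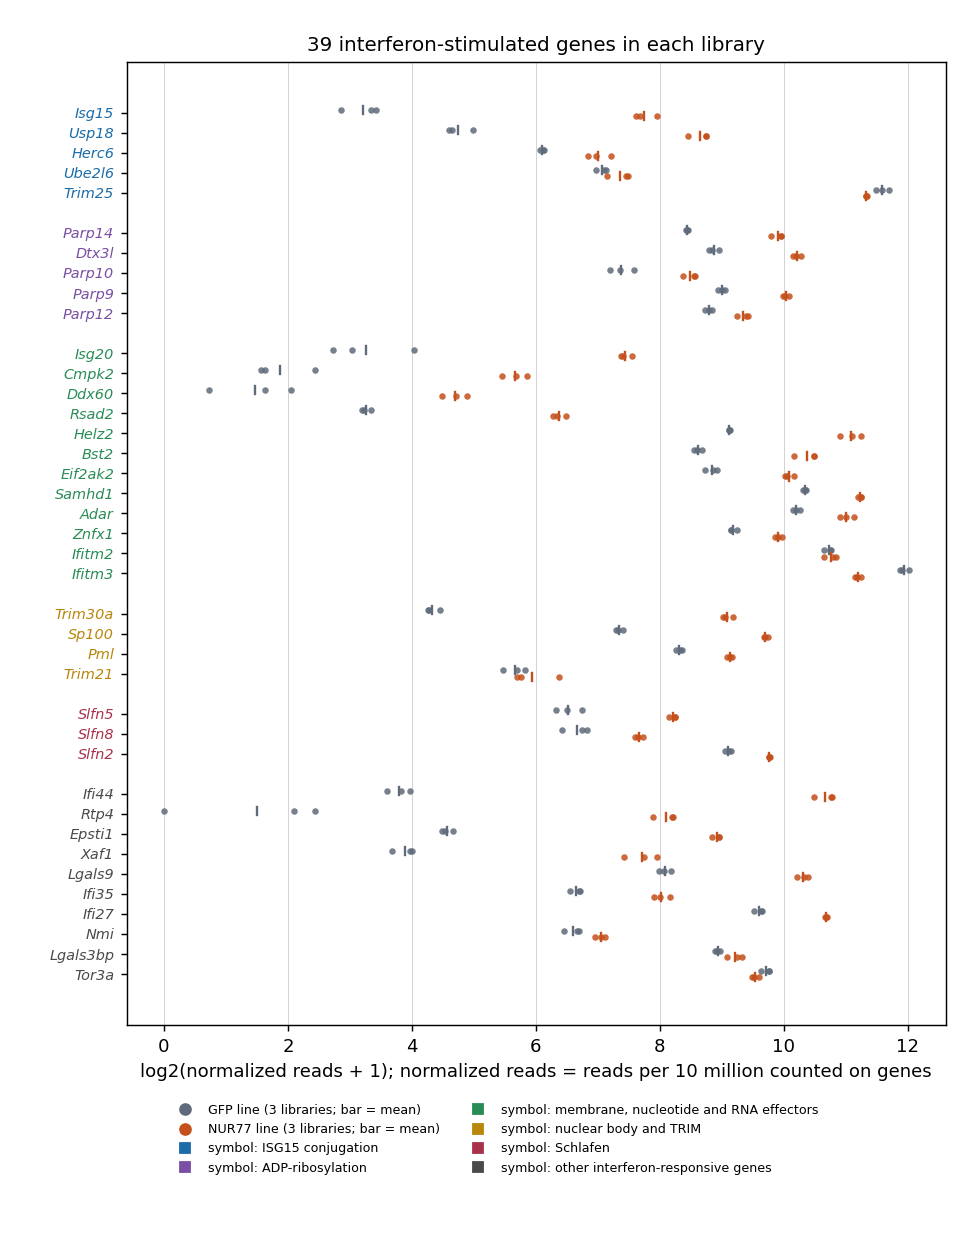
Level of each of the 39 genes in all 6 libraries, as log2(normalized reads + 1) on the x axis, grouped by role; dots are libraries and short bars are means of the GFP (grey) and NUR77 (orange) lines. The GFP means of Isg15, Isg20, Cmpk2, Ddx60, Rsad2 and Rtp4 are the lowest of the 39, all under 10 normalized reads, and the lines overlap for Ifitm2 and Trim21.

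ADP-ribosyltransferases of the PARP family modify proteins with ADP-ribose, and DTX3L is a ubiquitin ligase that works as a partner of PARP9. All 5 genes of this group rose, within a narrow range of log2 fold changes from 0.56 to 1.47. Parp14 (chromosome 16, 35832874 to 35871544, minus strand) was at 341, 352 and 346 normalized reads across the GFP dishes and at 892, 997 and 989 across the NUR77 dishes. Its values did not overlap between the lines (log2 fold change 1.47, SE 0.06, limma adjusted p = 1.8e-12). Dtx3l, which lies 54966 bases from Parp14, was at 445, 497 and 460 in the GFP line and at 1131, 1178 and 1248 in the NUR77 line. It rose by 2.54-fold (log2 fold change 1.34, limma adjusted p = 5.2e-12). Parp9 is the head-to-head neighbour of Dtx3l and rose from 511 ± 18.8 to 1045 ± 33.4 (log2 fold change 1.03). The exons of Parp9 and Dtx3l overlap on opposite strands, and the libraries were strand-specific, but how strand was set in the authors' counting is not stated. Parp10 rose from 166 ± 22.2 to 361 ± 27.0 (1.12), and Parp12, which acts on viral translation, from 443 ± 16.3 to 653 ± 41.6 (0.56). Parp12 had the smallest change of the 5.

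The group of membrane, nucleotide and RNA effectors has 12 members, of which 10 rose, 1 fell and 1 was not called. The largest changes were those of Isg20, Cmpk2, Ddx60 and Rsad2, which all passed the filter only through the NUR77 line. Isg20, an exonuclease for single-stranded RNA, was at 15.3, 5.65 and 7.19 normalized reads across the GFP dishes and at 169, 165 and 187 across the NUR77 dishes. The GFP values varied among themselves but stayed far below the NUR77 values (log2 fold change 4.18, SE 0.27, limma adjusted p = 1.8e-08). Rsad2 encodes viperin, which makes a chain-terminating ribonucleotide, and Cmpk2 encodes a mitochondrial nucleotide kinase that can supply its substrate. They are divergent neighbours on chromosome 12, 12751 bases apart. Cmpk2 was at 2.09, 4.39 and 1.96 in the GFP line and at 42.9, 57.1 and 50.1 in the NUR77 line. Its log2 fold change was 3.79 (SE 0.29, limma adjusted p = 5.5e-09), and 2.82 with a pseudocount of 5. Rsad2 was at 8.36, 8.16 and 9.15 against 76.8, 88.5 and 80.4, a rise of 9.57-fold (log2 fold change 3.12). Ddx60, a helicase-like gene linked to RNA sensing, had only 9 reads over the GFP libraries and 96 over the NUR77 libraries (log2 fold change 3.23, and 2.12 with a pseudocount of 5). Both Rsad2 and Cmpk2, like Ddx60, was among the 5 lowest levels per kilobase of the list in the NUR77 line.

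Effectors with higher levels per kilobase of exon in the GFP line rose by less, though Isg20, Cmpk2, Ddx60 and Rsad2 could hardly have been tested without a rise. Helz2, a helicase and nuclear receptor co-activator, rose from 555 ± 2.51 normalized reads to 2182 ± 249 (log2 fold change 1.97). Bst2 encodes tetherin, which holds budding virions at the cell surface, and rose from 390 ± 18.0 to 1339 ± 168 (1.77). Eif2ak2, the kinase PKR that halts translation when it binds double-stranded RNA, rose from 458 ± 30.5 to 1083 ± 54.0 (1.24). Samhd1, a dNTP hydrolase that limits reverse transcription, rose from 1293 ± 20.9 to 2395 ± 39.2 (0.89). Adar, which edits adenosine in double-stranded RNA, and Znfx1, a helicase that binds viral RNA, rose by 0.81 and 0.73 on the log2 scale. The spread between libraries of a line was smaller than the difference for each of these 6 genes.

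The interferon-induced transmembrane genes did not follow the rest of the group. IFITM proteins sit in endosomal membranes and hinder the fusion of enveloped viruses. Ifitm3 (chromosome 7, 141009586 to 141010770, minus strand) was at 3863, 3774 and 4135 normalized reads across the GFP dishes and at 2321, 2436 and 2271 across the NUR77 dishes. Every NUR77 value lay below every GFP value, a 1.68-fold lower mean (log2 fold change -0.74, SE 0.05, limma adjusted p = 1.3e-09). Ifitm2, whose gene lies 53598 bases away, was at 1743, 1607 and 1724 in the GFP line and at 1597, 1828 and 1785 in the NUR77 line. These values overlapped, with a log2 fold change of 0.04 (95% confidence interval -0.09 to 0.16, limma adjusted p = 0.6). The sign of the Ifitm2 value turned under TMM scaling, at -0.04. The fall of Ifitm3 kept its direction and its call in all 15 alternatives. As printed above, both promoter stretches hold ISRE core letters.

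TRIM proteins are mostly E3 ubiquitin ligases, and PML and SP100 build nuclear bodies that restrict incoming viral DNA. Of these 4 genes 3 rose. Trim30a, known to dampen NF-kB signalling in mouse cells, was at 20.9, 18.2 and 18.3 normalized reads across the GFP dishes and at 529, 577 and 520 across the NUR77 dishes. The mean rose 28.3-fold (log2 difference 4.75, SE 0.11, limma adjusted p = 1.0e-15). Sp100 was at 169, 160 and 156 in the GFP line and at 816, 826 and 855 in the NUR77 line. It rose by 5.15-fold (log2 fold change 2.36, limma adjusted p = 1.1e-14), while Pml rose from 317 ± 9.65 to 560 ± 15.7 (0.82). Trim21, a cytosolic antibody receptor, was at 43.2, 50.9 and 55.6 against 50.9, 81.5 and 53.3. NUR77 replicate 2 was high and the other libraries overlapped (log2 fold change 0.28, 95% confidence interval -0.10 to 0.66, limma adjusted p = 0.18). Without that library the value was 0.07 (adjusted p = 0.74). Trim30a and Sp100 have close relatives in the mouse genome, so their values are uncertain where reads are shared.

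Schlafen genes encode regulators of cell growth and of tRNA and RNA metabolism, and Slfn2 is needed for immune cell quiescence. All 3 rose, and the 3 genes lie together on chromosome 11. Slfn5 was at 106, 79.1 and 89.5 normalized reads across the GFP dishes and at 303, 302 and 283 across the NUR77 dishes (log2 fold change 1.69, limma adjusted p = 3.4e-10). Slfn8 was at 107, 113 and 84.3 against 194, 200 and 212 (1.00, adjusted p = 6.2e-07). Slfn2 was at 532, 566 and 555 against 869, 865 and 879 (0.66, adjusted p = 1.6e-08). In none of the 3 did the lines overlap, and Slfn2, with the highest level per kilobase of exon, had the smallest change. Slfn8 has a near-identical neighbour in the cluster, and its value is uncertain for that reason.

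The remaining 10 genes held both the largest change of the list and 1 fall. Ifi44, a cytoplasmic protein with a GTP-binding motif, was at 14.6, 13.2 and 11.1 normalized reads across the GFP dishes and at 1437, 1747 and 1735 across the NUR77 dishes. Its mean level was 126-fold higher (log2 fold change 6.88, SE 0.11, limma adjusted p = 2.2e-17). Rtp4, a receptor transporter that also binds viral RNA, had 0, 4.39 and 3.27 in the GFP line and 237, 295 and 291 in the NUR77 line. GFP replicate 1 had no read, and the log2 fold change of 6.59 (SE 0.66, limma adjusted p = 2.1e-04) was 5.84 without that library, 5.25 with a pseudocount of 5 and 7.25 by limma-voom. Epsti1, a gene induced in macrophage activation, rose from 22.7 ± 1.57 to 483 ± 22.3 (4.36). Xaf1, which counters the apoptosis inhibitor XIAP, rose from 13.8 ± 1.79 to 211 ± 37.7 (3.83). These 4 genes were all under 30 normalized reads in the GFP line.

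Other genes of this group had higher levels per kilobase in the GFP line. Lgals9, which encodes the secreted lectin galectin-9, rose from 270 ± 18.5 normalized reads to 1275 ± 82.3 (log2 fold change 2.23). Ifi27, a membrane protein of mitochondria and the nuclear envelope, was at 800, 733 and 792 across the GFP dishes and at 1663, 1649 and 1623 in the NUR77 libraries (1.09, limma adjusted p = 1.4e-11). Ifi35 and Nmi encode partner proteins that bind each other. Ifi35 rose from 99.9 ± 6.12 to 260 ± 24.2 (1.37) and Nmi from 96.3 ± 8.75 to 131 ± 7.66 (0.45, adjusted p = 0.0018). Lgals3bp, a secreted glycoprotein that binds galectin-3, rose from 488 ± 13.9 to 597 ± 48.3 (0.29, adjusted p = 0.0012). Tor3a, an ATPase of the endoplasmic reticulum, was at 791, 867 and 866 against 734, 779 and 718. All NUR77 libraries were lower, but by little (-0.18, limma adjusted p = 0.014), and not past the threshold with GFP replicate 2 (adjusted p = 0.055) or GFP replicate 3 (0.074) left out.

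**Figure D4:**
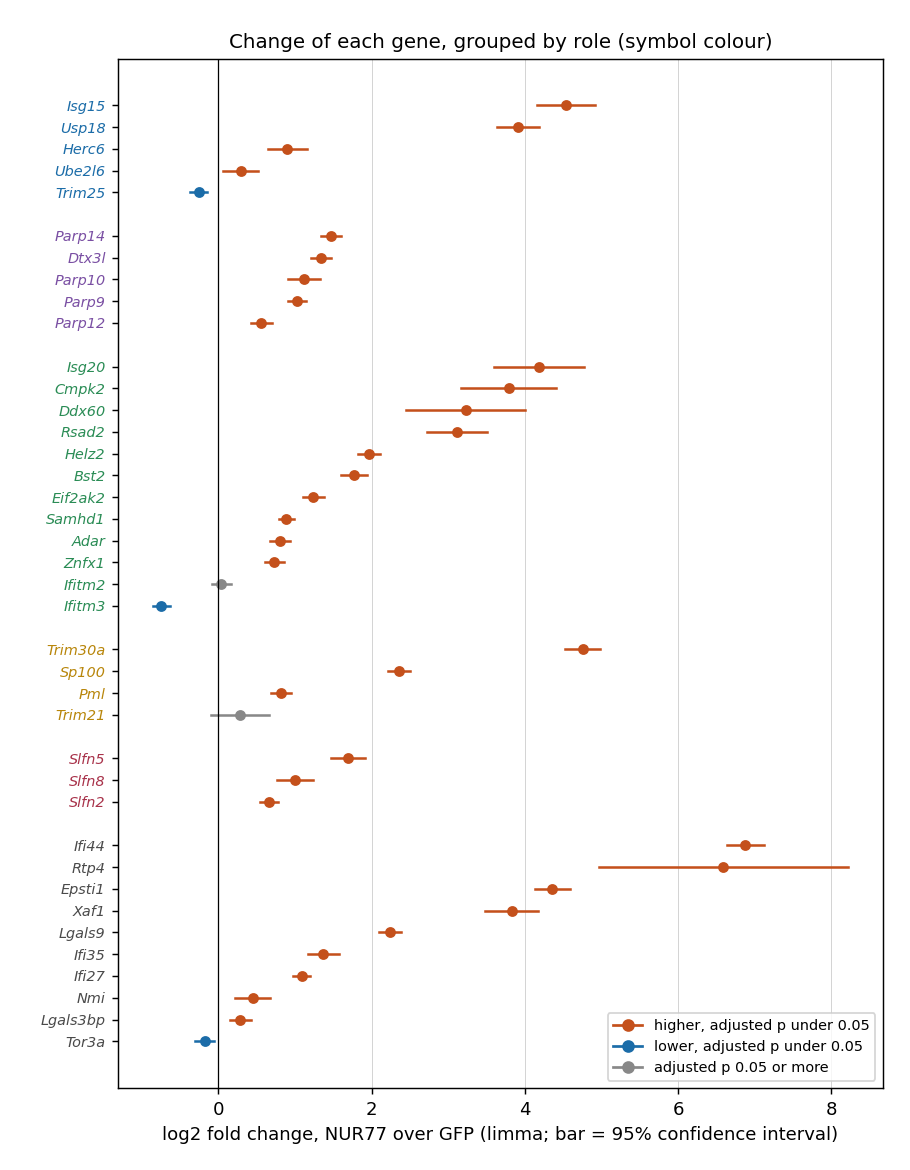
Log2 fold change of NUR77 over GFP (x axis) for each of the 39 genes by role, with the 95% confidence interval from limma as a bar. Orange marks genes called higher, blue those called lower and grey those not called; Ifi44 (6.88) and Rtp4 (6.59) lie farthest right and Ifitm3 (-0.74) farthest left.

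Levels of different genes were compared per kilobase of annotated exon. In the GFP line they ran from 0.226 normalized reads per kilobase for Ddx60 to 5788 for Ifitm3. In the NUR77 line the same genes were lowest and highest, at 2.88 and 3455. The list thus spanned 25630-fold in the GFP line and 1198-fold in the NUR77 line. Isg15 moved from rank 28 of 39 to rank 8 in level per kilobase, and Ifi44 from rank 35 to rank 9, while Ube2l6 went from rank 17 to rank 30. Across the 39 genes, the level per kilobase in the GFP line and that in the NUR77 line had a Spearman rho of 0.73. The level in the GFP line and the log2 fold change had a rho of -0.75. Genes are not independent replicates, and both values of that last pair use the GFP libraries. The filter also shapes that pair, since the 6 members under 10 in the GFP line passed it only through the NUR77 line. The 11 members under 30 normalized reads in the GFP line had log2 fold changes of 3.12 to 6.88. The other 28, which began at 49.9, did not go above 2.36. Summed over the list, the level was 18777 to 19596 normalized reads in the GFP libraries and 31223 to 34001 across the NUR77 dishes.

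**Figure D5:**
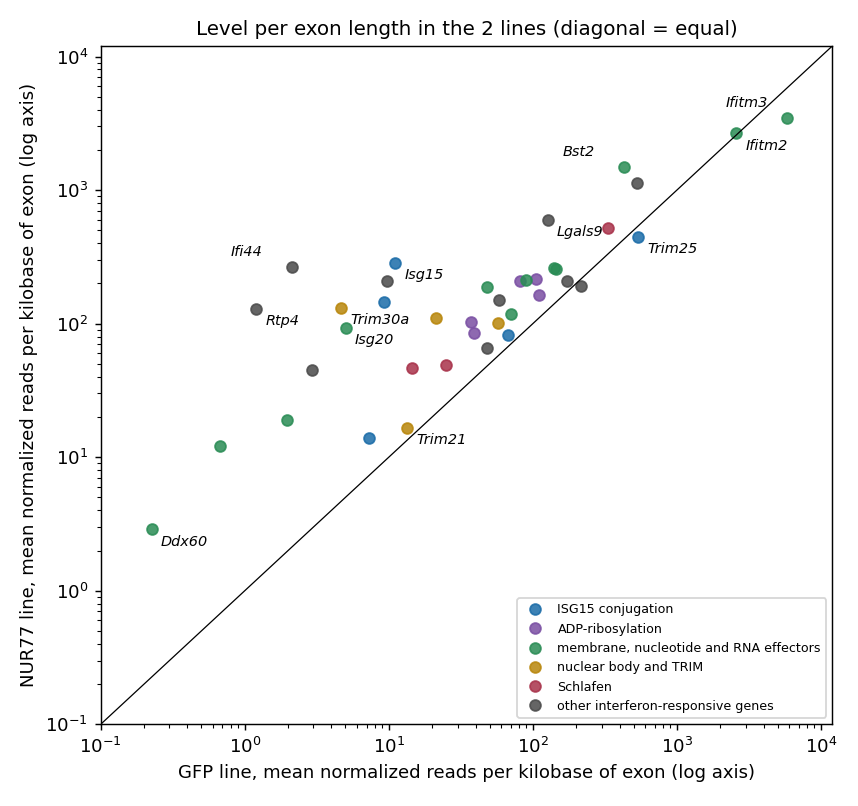
Mean level of the 39 genes per kilobase of exon in the GFP line (x axis, log) and the NUR77 line (y axis, log), coloured by role, with the diagonal marking equal levels. Ddx60 is lowest in both lines at 0.226 and 2.88, and Ifitm3, below the diagonal, is highest in both.

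The rest of the interferon pathway was counted from a list of 39 other genes, of which 38 were in the table and 30 passed the filter. Of these, 25 rose (38.4% of all tested genes) and 3 fell (28.3%), with a median log2 fold change of 1.41, beside 0.06 over all tested genes. Among the 25 that were at 10 or more in the GFP line, 20 rose and 3 fell, with a median of 0.89. Ifnb1, which encodes interferon beta, had no read in the GFP libraries and 1 across the NUR77 dishes. A count of 0 over the GFP line allows up to 0.658 normalized reads (3 reads over the group, counting error only). Interferon alpha genes were not analysed here. Of the receptor chains, Ifnar1 fell from 1184 ± 35.8 to 1033 ± 23.3 (log2 fold change -0.20, limma adjusted p = 0.0032) and Ifnar2 was at 0.04 (adjusted p = 0.6). Transcription factor genes of the pathway rose, Stat2 from 337 ± 26.6 to 572 ± 16.1 and Irf9 from 180 ± 4.82 to 626 ± 9.91. Irf7, an interferon-induced factor that amplifies the response, had the largest change of the 30 (5.71). Irf3, a factor that acts upstream of interferon production and was chosen after its values were seen, was at -0.16 (limma adjusted p = 0.042), no longer called without GFP replicate 1 (0.051), 2 (0.11) or 3 (0.11), and without NUR77 replicate 1 (0.057) or 3 (0.12).

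Among the 34 members that rose, NUR77 replicate 1 was the lowest of the NUR77 libraries in 23. How often it was the lowest over all tested genes was not counted, so this is not shown to be particular to these members. The median deviation of NUR77 replicate 1 from the NUR77 mean over the 39 genes was -0.09 on the log2 scale, beside 0.07 and 0.01 for replicates 2 and 3. This library had the highest fibroblast marker sum, the highest muscle marker sum once Tnni2 was set aside, and the fewest reads in all. The part of those differences in the lower values was not tested. As given above, the same numbers of members rose and fell with that library left out.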

How the data were processed

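Gene expression was measured by poly(A) RNA sequencing of 3 NUR77 and 3 GFP libraries, grouped by the transgene in the sample titles. The authors deposited log2 values for 23154 Ensembl genes, 1 column per library. The submitters' processing notes name the tools TopHat2 2.1, HTSeq and DESeq2 and the build mm10. Their roles, the gene annotation and the strand setting of counting are not given there. Judged by its values, each deposited log2 value is log2(normalized reads + 1), and each library sums to 10000000. Every value is a whole multiple of 1 read (100% within 0.1 read), which gave the depth. This scaling sets equal totals, so changes of abundant genes shift the rest slightly; reads that fit several near-identical genes may be lost or divided. Per-library files held the same values as the table.

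Symbols, coordinates and exon lengths were from GENCODE (GRCm38, the same assembly as mm10), and promoter sequences from RefSeq GRCm38.p6. Genes averaging 10 normalized reads or more were tested with limma (version 3.58.1, under R 4.3.3) on the log2(normalized reads + 1) scale, using trend and robust moderation and no covariate, with Benjamini-Hochberg adjustment over all of them at 0.05. The code was tested on simulated data. Members and lists were chosen with earlier results of these data known. All members are named; library values are given for the 2 largest changes and the most abundant gene of each role group and for members not called or lower, with others added where a sentence compares them. Of the pathway list, Ifnb1, Ifnar1, Ifnar2, Stat2, Irf9 and Irf7 are named by that rule, and Irf3 was added after its values were seen; some genes of the lists are counted but not reported here by name. Exons of 8 members (Parp9, Dtx3l, Parp10, Eif2ak2, Adar, Znfx1, Slfn5 and Ifi35) overlap another listed gene. The alternatives tried were another pseudocount (0.5 or 5), another filter (none, or a mean of 50), TMM and median-of-ratios scaling, limma without trend, limma-voom on recovered reads, a replicate block, and each library left out. The replicate number was not taken as a pairing. No group has more than 3 libraries, so none was tested as an outlier, and all were kept in the main test. NUR77 replicate 1 was described as above.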

Additional observations from a re-analysis of the deposited data

How the results depend on the processing

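Over 15 alternatives, 36 of the 39 members kept their direction and their side of the threshold wherever they were tested; the exceptions were Ube2l6, Tor3a and Ifitm2. The number of members that rose was between 31 and 34, the 31 with a filter at a mean of 50, which left 36 members tested. It was 33 under TMM and median-of-ratios scaling, where Ube2l6 was lost, and the number that fell was 2 or 3. The median log2 fold change of the members was 1.17 under TMM and 1.10 with the filter at 50. The replicate block, with 34 rises and 3 falls, changed no call among the members. Deviations from the group mean in same-numbered libraries correlated at 0.0016, 0.11 and 0.04 across genes, and those in differently numbered libraries at -0.11 to 0.07. These values cannot settle whether same-numbered libraries were paired. Without that pairing, all genes gave 4305 rises and 3170 falls, and with the block 4365 and 3220. TMM scaling lowered the median of all genes by less than 0.1, and gave 3606 rises and 3838 falls. The log2 fold change of Ifitm2 turned to -0.0374 under TMM scaling and -0.0206 under median-of-ratios scaling, and with 1 library left out lay between -0.0015 (without NUR77 replicate 2) and 0.0957. That of Ifnar2 turned to -0.0335 and -0.0167, and with 1 library left out lay between -0.0015 (without GFP replicate 3) and 0.102. None of the negative values was called. Irf3 was not called without a filter (adjusted p = 0.078). Genes with few reads in the GFP line, such as Ddx60 with 9, are limited by depth.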
